A study of Homo sapiens with 14 samples.

Results

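The cytosolic HSP110 family holds 3 human genes, HSPH1 (also called HSP105), HSPA4 (APG-2) and HSPA4L (APG-1). Binding of the heat shock factors HSF1 and HSF2 at these genes was read from the peak lists of a ChIP-seq study (sequencing of the DNA that an antibody against a bound protein pulls down). The cells were K562, a human erythroleukemia line. Members are the peaks that overlap by at least 1 bp an hg19 window set around each gene: chr13:31705000-31742000 for HSPH1, chr5:132382000-132446000 for HSPA4 and chr4:128698000-128760000 for HSPA4L. Of the 117699 peaks in the 12 antibody libraries, 21 lie in these windows, 5 at HSPH1, 10 at HSPA4 and 6 at HSPA4L.

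The 4 conditions are heat-treated mitotic, non-treated mitotic, heat-treated cycling and non-treated cycling K562 cells. Heat was 42 °C for 30 min, non-treated cells carry no treatment and were grown at 37 °C, mitotic cells were arrested in mitosis, and cycling cells were not synchronised. Each condition has 1 library for HSF2, 1 for HSF1 and 1 for non-specific IgG, each made from 10 pooled immunoprecipitations, and a heat-treated input library of each cell state has no list here. The headers give 38337720 kept control tags for every mitotic list, 34815679 for 5 cycling lists and 36542527 for non-treated cycling IgG. The count of kept control tags was thus not the same in all cycling lists. Each group has 1 library, so a difference between a pair of libraries has no replicate check, and the only test over libraries is one of heat. The lists hold binding and no expression, so the cell line was not checked against marker genes.

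HSP110 proteins are large relatives of HSP70. They release ADP from HSP70 so that it can take up ATP and let go of its client, and together with J-domain proteins they help HSP70 take protein aggregates apart. The heat shock response is switched on chiefly by HSF1. HSF2 belongs to the same family, and both bind arrays of inverted GAA units called heat shock elements. Chromosomes are condensed and most transcription stops in mitosis.

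Each of the 3 genes carried 1 main region, which is where the peaks of the 8 HSF lists merge around the HSF1 peak of highest fold in heat-treated cycling cells. The regions are chr13:31735620-31736696 at HSPH1, chr5:132387082-132388168 at HSPA4 and chr4:128702779-128703772 at HSPA4L, 1077, 1087 and 994 bp wide. RefSeq places HSPH1 on the minus strand and the other genes on the plus strand. The HSF1 summit of heat-treated cycling cells lay 5847 bp inside the upper end of the HSPH1 window, 5672 bp inside the lower end of the HSPA4 window and 5262 bp inside the lower end of the HSPA4L window, each time the end from which the gene is read.

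The promoter letters are shown because all 12 main peaks sit near the end where their gene begins. They are RefSeq promoters of build GRCh38.p14, 250 bases before an annotated start, 5′ to 3′ on the gene's strand, and they were not placed on the hg19 peaks. HSPH1 is at chr13:31162389-31162638 (minus), HSPA4 at chr5:133051763-133052012 (plus) and HSPA4L, the second of its 3 listed promoters, at chr4:127782072-127782321 (plus). Capitals mark a pair of inverted GAA units, GAA facing TTC.
HSPH1: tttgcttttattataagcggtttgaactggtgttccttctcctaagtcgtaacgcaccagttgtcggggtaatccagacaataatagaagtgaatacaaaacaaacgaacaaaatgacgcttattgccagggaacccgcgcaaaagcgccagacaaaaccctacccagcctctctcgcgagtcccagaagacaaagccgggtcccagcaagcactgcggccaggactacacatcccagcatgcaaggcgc
HSPA4: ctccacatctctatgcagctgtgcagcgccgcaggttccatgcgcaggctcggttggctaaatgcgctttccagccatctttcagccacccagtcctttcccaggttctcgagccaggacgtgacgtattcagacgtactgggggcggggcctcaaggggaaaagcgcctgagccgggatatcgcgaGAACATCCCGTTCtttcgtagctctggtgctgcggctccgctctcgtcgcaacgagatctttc
HSPA4L: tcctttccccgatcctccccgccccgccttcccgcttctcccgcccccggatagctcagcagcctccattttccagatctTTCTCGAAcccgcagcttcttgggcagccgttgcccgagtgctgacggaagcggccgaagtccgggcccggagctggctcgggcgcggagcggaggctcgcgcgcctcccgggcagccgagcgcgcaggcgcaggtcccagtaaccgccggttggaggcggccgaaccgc

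The search covered 300-base windows that run 50 bases past each start, on both strands, with GAANNTTC and TTCNNGAA for 2 units, and with the same motifs lengthened by NNGAA or NNTTC to 3 and 4 units (each longer motif holds the 2-unit ones). The HSPA4L promoter shown held 1 match, TTCTCGAA, which begins 170 bases before the start. TTCNNGAA was in 7.74% of all 35116 RefSeq promoter windows and GAANNTTC in 6.77%. No other match was in the 5 promoter windows of the 3 genes, and that says only that these letters are not in these windows. A wider spacing, GAA and TTC with 7 bases between them, was looked for after the HSPA4 letters had been read. It was found there as GAACATCCCGTTC, beginning 63 bases before the start, and is in 7.46% of all promoter windows.

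All 4 heat-treated HSF lists held a peak at the main region of every gene, and neither the 4 non-treated HSF lists nor the 4 IgG lists held one there. Of the 13 peaks that the heat-treated HSF lists have in the windows, 12 are in the main regions. Kept tags ran from 2066373 (non-treated mitotic IgG) to 28676943 (non-treated cycling HSF2), and the heat-treated mitotic IgG list is the longest, with 41184 peaks. Values below are tags in a library's own peak per 1000000 kept tags (CPM), with 95% exact Poisson intervals that cover counting error only.

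HSPH1 encodes HSP105, the family member best known as heat-inducible. In heat-treated mitotic cells its main peak held 27 HSF2 tags (0.954 CPM, 0.629 to 1.39) and 30 HSF1 tags (4.06 CPM, 2.74 to 5.80). In heat-treated cycling cells it held 75 HSF2 tags (3.85 CPM, 3.03 to 4.83) and 109 HSF1 tags (6.51 CPM, 5.35 to 7.86). HSF1 in cycling cells was the highest value of the family and HSF2 in mitotic cells stood lowest of the 4, with an interval apart from the other 3. The deposited folds over input, which serve only within a list, were 6.34 and 8.80 for mitotic HSF2 and HSF1, and 19 and 32.6 for cycling HSF2 and HSF1.

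HSPH1 was also the only gene with a second HSF peak from heat-treated cells. Heat-treated cycling HSF1 had 22 tags (1.31 CPM, 0.824 to 1.99; fold 5.04) at chr13:31734712-31735523, 96 bp below the main region. No other list had a peak there. In that HSF1 list 7.07% of the 6447 peaks have another peak within 1000 bp.

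HSPA4 encodes APG-2, an exchange factor that most cell types make without stress. Its main peak held 19 HSF2 tags (0.671 CPM, 0.404 to 1.05) and 15 HSF1 tags (2.03 CPM, 1.14 to 3.35) in heat-treated mitotic cells. In heat-treated cycling cells it held 76 HSF2 tags (3.90 CPM, 3.07 to 4.88) and 81 HSF1 tags (4.84 CPM, 3.84 to 6.02). The cycling values of the factors have overlapping intervals, and both are above the mitotic HSF2 interval. Deposited folds were 4.23 in both mitotic lists, 20.9 for cycling HSF2 and 22.5 for cycling HSF1.

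HSPA4L encodes APG-1, which in mice is known for its role in male fertility. In heat-treated mitotic cells its main region held 17 HSF2 tags (0.601 CPM, 0.350 to 0.962; fold 3.52) and 19 HSF1 tags (2.57 CPM, 1.55 to 4.02; fold 4.23). In heat-treated cycling cells it had the weakest main peak of the family, with 22 HSF2 tags (1.13 CPM, 0.708 to 1.71; fold 5.47) and 37 HSF1 tags (2.21 CPM, 1.56 to 3.05; fold 9.12). The HSF1 intervals of the cell states overlap over most of their length here.

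**Figure D1:**
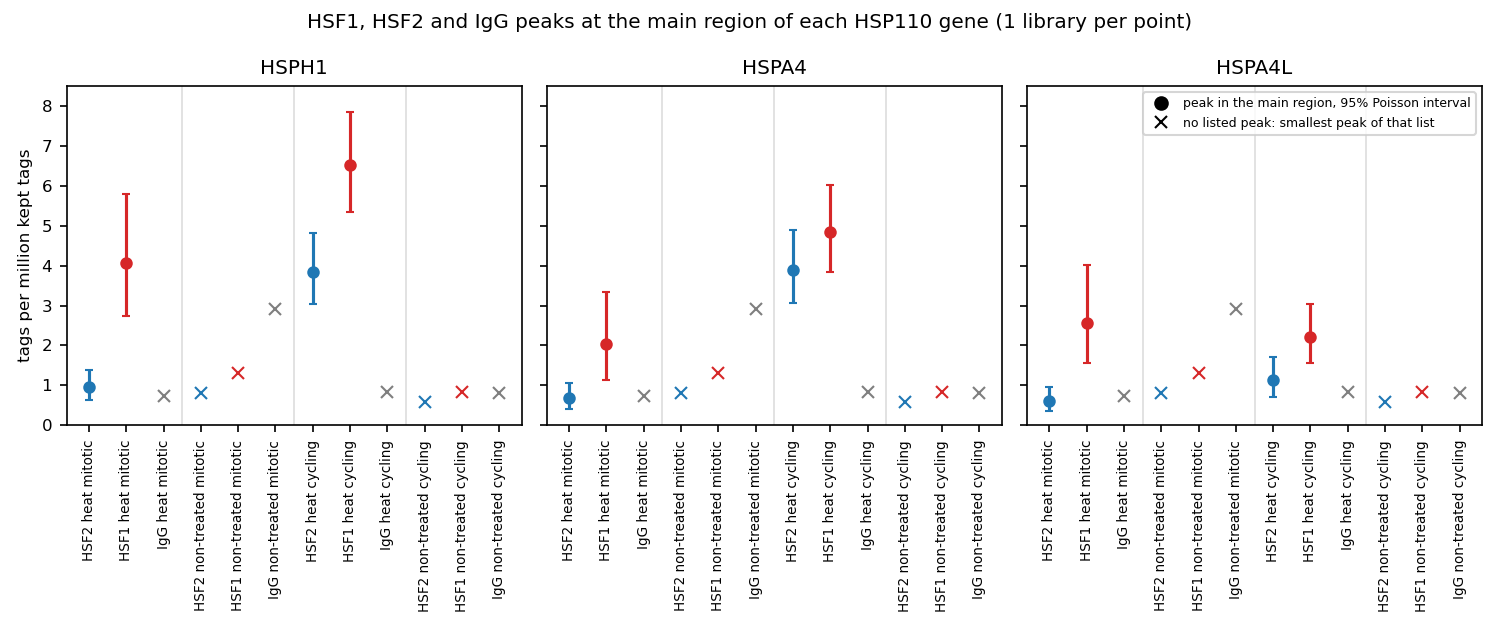
CPM, tags per 1000000 kept tags (vertical axis), at the main region of HSPH1, HSPA4 and HSPA4L in each of the 12 libraries (horizontal axis); points are listed peaks with 95% Poisson intervals, and crosses show, where a list has no peak in the region, the smallest peak that list holds anywhere. Points appear only for heat-treated HSF2 and HSF1, and the tallest is HSF1 in heat-treated cycling cells at HSPH1 (6.51 CPM).

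Setting heat-treated against non-treated cells asks whether heat brings the factors to these genes. Heat-treated libraries had 12 main-region peaks over the 3 genes and 4 HSF lists, against 0 in the non-treated HSF lists. The regions were placed on the HSF1 peaks of heat-treated cycling cells, so the peaks of that list were fixed by the choice. These counts are therefore a description and no independent contrast of heat. A list names only regions past the caller's limit, so a missing peak is not a count of 0 tags. The smallest peak listed anywhere in the genome was 0.812 CPM for non-treated mitotic HSF2, 1.30 CPM for non-treated mitotic HSF1, 0.593 CPM for non-treated cycling HSF2 and 0.831 CPM for non-treated cycling HSF1. In cycling cells every heat-treated value of the 3 genes is above the smallest non-treated peak of the same factor, and so is every mitotic HSF1 value. At HSPA4, however, the mitotic HSF1 interval (1.14 to 3.35 CPM) holds that smallest peak. Mitotic HSF2 differs. Its heat-treated values at HSPA4 (0.671 CPM) and HSPA4L (0.601 CPM) are below the smallest peak of the shallower non-treated library. The lists cannot tell heat-treated from non-treated cells there. At HSPH1 the mitotic HSF2 value (0.954 CPM) is above that smallest peak, but its interval (0.629 to 1.39 CPM) holds it. The smallest listed peak is the most lenient limit of a list, so a site above it need not have been listed. In non-treated cycling HSF2 the list median was 1.36 CPM, above the heat-treated cycling HSF2 value at HSPA4L (1.13 CPM). Values above the limit therefore do not show that non-treated cells lacked binding.

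Counted over the whole windows, which the main regions did not set, heat-treated libraries had 3 peaks for mitotic HSF2, 3 for mitotic HSF1, 3 for cycling HSF2 and 4 for cycling HSF1. Non-treated libraries had 3 for mitotic HSF2 and 0 in each of the other 3 HSF lists. The mean difference of heat-treated minus non-treated over these 4 pairs was 2.5 peaks, higher in 3 of 4 pairs, and a two-sided exact permutation test that flips the sign within pairs gave p = 0.25. The smallest p that 4 pairs allow is 0.125. Of the 13 heat-treated peaks counted, 12 are those of the main regions. The pairs are of unlike antibody and cell state, with 1 library on each side, and are not replicates of heat. The test can therefore not decide whether heat changed the count. IgG also had a mean difference of 2.5 peaks, with 3 in heat-treated mitotic and 2 in heat-treated cycling cells against 0 and 0 in non-treated cells. With no minimum on fold or score, the count of peaks in the windows therefore does not set the HSF lists apart from IgG. These counts ignore list length. Mitotic IgG had 41184 peaks after heat and 2373 without, and mitotic HSF2 had 8270 and 19866. At a fold of at least 5 the windows held 9 heat-treated HSF, 0 non-treated HSF and 0 IgG peaks. At a score of at least 100 they held 10, 1 and 1. Whether 1 minimum serves lists of unlike depth was not tested. The main regions were drawn from HSF lists alone, so the lack of IgG peaks there is no independent contrast.

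Lack of a non-treated peak is common. Of all 6447 HSF1 peaks of heat-treated cycling cells, 78.3% had none in the 4 non-treated HSF lists, and that share is close enough to 3 of 3 genes to say nothing about the family. The joint pattern is rarer. Beside the HSF1 peak of heat-treated cycling cells, all 3 genes had a mitotic HSF2 peak, a mitotic HSF1 peak and a cycling HSF2 peak after heat, against 12.4%, 16.3% and 32.6% of the 6447 peaks. All 4 lists together held a peak at 3 of 3 genes, against 4.62% of the 6447. With the added condition that the other 8 lists have none, the share of the 6447 peaks was 0.682%.

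These shares move with the strength of the peak, and the genes differ in strength. HSPH1 and HSPA4 are among the 40 HSF1 peaks of heat-treated cycling cells with a fold of at least 20 (0.62% of the list), and of those 40, 70% were in all 4 heat-treated HSF lists and 17.5% were also in none of the other 8. HSPA4L, at a fold of 9.12, is among 964 peaks with a fold of 5 to 10. Of these, 4.15% were in all 4 heat-treated HSF lists and 1.14% were also in none of the other 8. A mitotic HSF1 peak was present at 15.4% of the 964 and a mitotic HSF2 peak at 10.7%. HSPA4L is near the upper end of that range, and the next range, a fold of 10 to 20, holds 245 peaks. Of these, 22.4% were in all 4 heat-treated HSF lists and 10.6% were also in none of the other 8. A mitotic HSF1 peak was present at 49% of the 245 and a mitotic HSF2 peak at 28.6%. A peak in all 4 heat-treated lists is thus the usual case at a fold of at least 20, and the less common case in both ranges next to HSPA4L.

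Non-treated HSF peaks in the windows were 3, all of mitotic HSF2 and none in a main region. At HSPA4 they lay at chr5:132381514-132382030 (12 tags, 0.812 CPM), of which 31 bp are inside the window, and at chr5:132444344-132445098 (14 tags, 0.947 CPM). At HSPA4L the peak was at chr4:128745877-128746475 (12 tags, 0.812 CPM, fold 1.67). They lie 5051, 56175 and 42104 bp from the main regions, and their tags are at or just above the minimum of 12 in that list.

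IgG had 5 peaks in the windows and none in a main region. Heat-treated mitotic IgG had 3 at HSPA4, with 13, 15 and 16 tags (0.723, 0.834 and 0.890 CPM), at 3263, 7724 and 56536 bp from the main region. The last, chr5:132444705-132445272, overlaps the second non-treated mitotic HSF2 peak. Heat-treated cycling IgG had 1 peak of 12 tags (0.824 CPM) at HSPA4 and 1 of the same size at HSPA4L, 46313 and 54227 bp away. HSPH1 had no IgG peak in its whole window. Of the 6447 HSF1 peaks of heat-treated cycling cells, 71.8% have no IgG peak in any list, so its lack at the 3 main regions is near the background.

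The mitotic HSF2 peaks of HSPA4 and HSPA4L are near the caller's limit, while HSPH1 is above the list's median level (0.954 against 0.742 CPM). The levels of the 3 genes, 0.601 to 0.954 CPM, are close to those of heat-treated mitotic IgG peaks elsewhere in the HSPA4 window (0.723 to 0.890 CPM), although that IgG list has no peak in a main region. Deposited scores (minus 10 times log10 of the p-value) were 74.4 at HSPH1, 64.3 at HSPA4 and 50.8 at HSPA4L, where the caller's limit is 50. The deposited false discovery rates were 5.07%, 4.6% and 3.50%. Mitotic HSF1 scores were far from the limit, at 1139 for HSPH1, 347 for HSPA4 and 576 for HSPA4L, in a library of 7385467 kept tags against 28299989 for HSF2. Whether scores compare between libraries of such unlike depth was not tested.

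Mitotic and cycling cells were compared after heat, which asks how far the factors stay on condensed chromosomes. HSF1 at HSPH1 was 4.06 CPM in mitotic and 6.51 CPM in cycling cells, a ratio of 0.624 (0.402 to 0.942). At HSPA4 it was 2.03 CPM in mitotic and 4.84 CPM in cycling cells, a ratio of 0.420 (0.225 to 0.734). HSPA4L had a ratio of 1.16 (0.632 to 2.08), from 2.57 CPM in mitotic and 2.21 CPM in cycling cells, and with total in place of kept tags it was 0.827, so its direction is not settled. The interval excludes 1 at HSPH1 and HSPA4 and holds 1 at HSPA4L, and the HSPA4L interval overlaps that of either other gene.

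HSF2 was lower in mitotic cells at all 3 genes by these values. The ratio of mitotic to cycling cells was 0.248 (0.153 to 0.389) at HSPH1, 0.172 (0.0982 to 0.287) at HSPA4 and 0.532 (0.265 to 1.05) at HSPA4L, where the interval reaches past 1. The headers cap tags at 1 per position in mitotic HSF1 and at 2 in the other 3 heat-treated HSF libraries, and the part of this in the ratios was not tested. Alignment names carry bwa in both heat-treated cycling HSF lists and in neither mitotic one. Nearly all cycling tags were kept, against 7385467 of 10389953 in mitotic HSF1 and 28299989 of 31319536 in mitotic HSF2. For both factors, cell state cannot be told apart from these differences in processing. Peak widths differ: at HSPA4 the HSF2 peak spanned 565 bp in mitotic and 900 bp in cycling cells.

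The rest of the lists gives the scale. Over 157 HSF1 sites with a cycling fold of at least 10 and a mitotic peak, the median ratio of mitotic to cycling was 0.507, with quartiles of 0.398 and 0.629. HSPH1 was above 73.9% of them and HSPA4 above 28.7%. Over 81 such HSF2 sites the median was 0.266, with quartiles of 0.195 and 0.329, and 44.4% and 18.5% of the sites were below HSPH1 and HSPA4. HSPA4L is not among those sites, since its cycling folds are under 10. Over all overlapping pairs the medians were 0.875 for 1053 HSF1 pairs and 1.03 for 645 HSF2 pairs, and 63.2% and 26.4% of these were below HSPA4L. All of these pairs need a peak in both lists, so weak peaks enter only where the mitotic value is high.

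HSF2 was set against HSF1 within each cell state. In heat-treated cycling cells the ratio of HSF2 to HSF1 was 0.591 (0.435 to 0.801) at HSPH1, 0.806 (0.582 to 1.12) at HSPA4 and 0.511 (0.287 to 0.889) at HSPA4L. In heat-treated mitotic cells it was 0.235 (0.134 to 0.409), 0.331 (0.159 to 0.699) and 0.234 (0.114 to 0.474) at HSPH1, HSPA4 and HSPA4L. HSF2 was below HSF1 at each gene in both cell states, and the interval holds 1 only at HSPA4 in cycling cells. The antibodies differ, so a ratio is not a ratio of bound molecules. Over the 280 HSF1 sites with a fold of at least 10 and an HSF2 peak in cycling cells, the median ratio was 0.671, with quartiles of 0.567 and 0.807. HSPH1 and HSPA4 fall inside or at the edge of that range. Over all 2101 overlapping cycling pairs the median was 0.859, with 15.3%, 42.6% and 7.76% of pairs below HSPH1, HSPA4 and HSPA4L. In mitotic cells the median over all 1444 pairs was 1.94, and 0.970%, 2.56% and 0.900% of pairs were below the 3 genes in that order. Only 6 mitotic pairs had an HSF1 fold of at least 10, and their median was 0.271, near the values of the 3 genes.

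**Figure D2:**
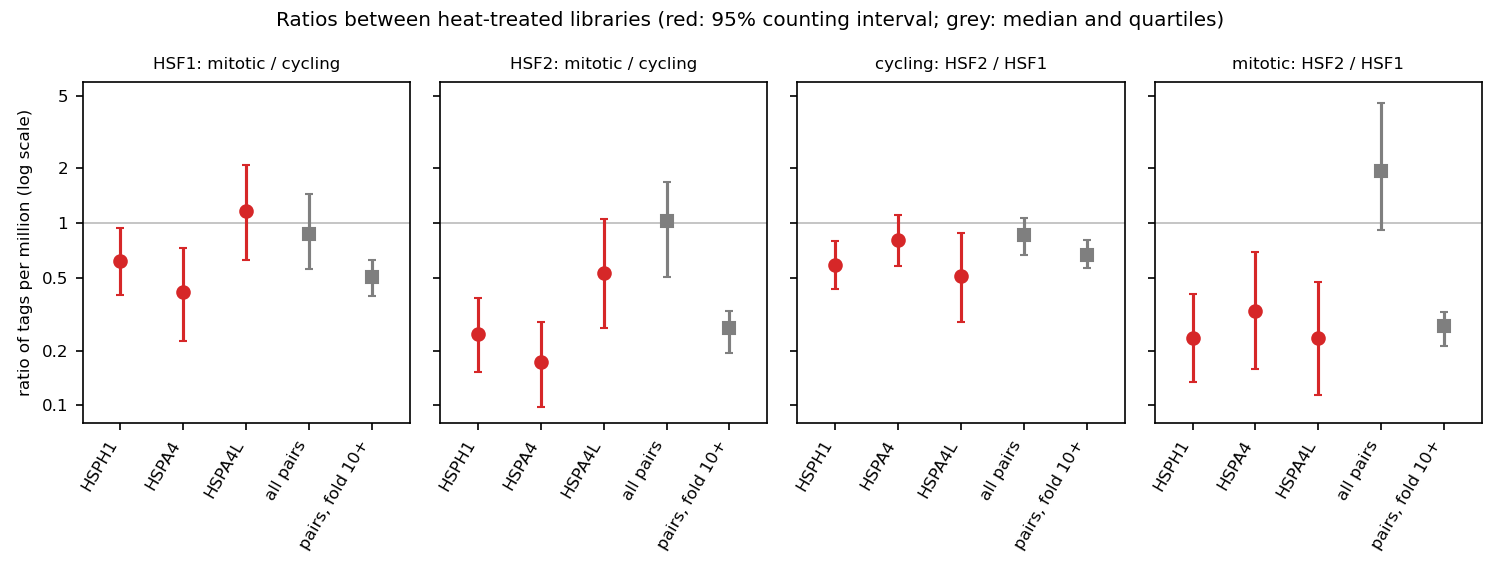
Ratios of CPM (vertical axis, log scale) between pairs of heat-treated libraries; red points are the 3 genes with 95% counting intervals, and grey squares are medians with quartiles over all overlapping pairs of peaks and over pairs with a fold of at least 10 in the library under the fraction line. HSPA4 has the lowest and HSPA4L the highest mitotic over cycling ratio for both factors (HSF1 0.420 and 1.16, HSF2 0.172 and 0.532).

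**Figure D3:**
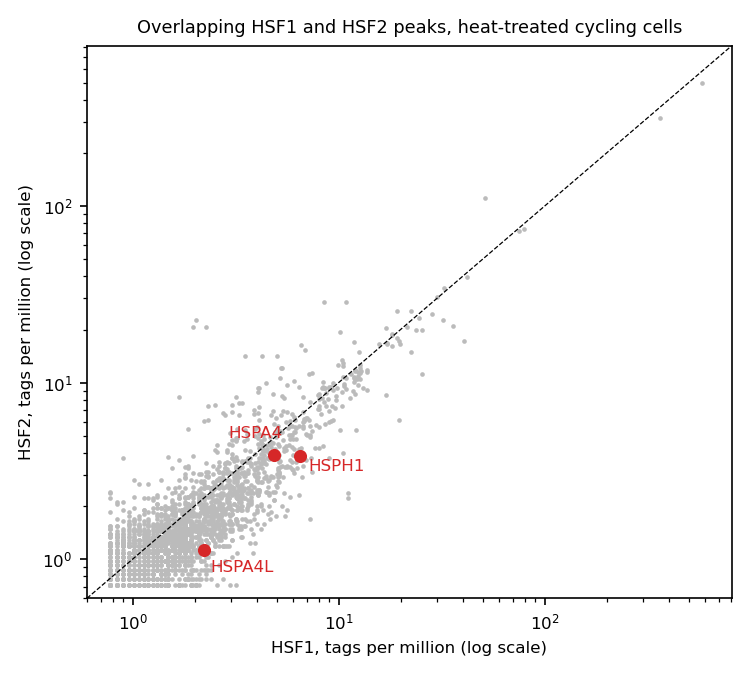
HSF2 against HSF1 CPM (both axes log scale) at the 2101 HSF1 peaks of heat-treated cycling cells that overlap an HSF2 peak; the dashed line marks equal values and red points are the 3 genes. All 3 lie below the line, HSPA4 nearest to it (3.90 CPM of HSF2 and 4.84 CPM of HSF1).

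Within a library the genes share depth, antibody and cells, so their tags can be set side by side directly. In heat-treated cycling cells HSPA4 had 0.743 times the HSF1 tags of HSPH1 (0.550 to just under 1) and 1.01 times its HSF2 tags (0.727 to 1.41). HSPA4L had 0.339 times the HSF1 tags of HSPH1 (0.227 to 0.497) and 0.293 times its HSF2 tags (0.174 to 0.477). HSPA4 is below HSPH1 in cycling HSF1 by an interval that barely leaves out 1, and in cycling HSF2 the interval holds 1. HSPA4L is below both.

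By these ratios HSPA4L was nearer to HSPH1 in mitotic than in cycling cells, and HSPA4 was farther from it. The mitotic and cycling intervals overlap in each case. HSPA4L had 0.633 times the mitotic HSF1 tags of HSPH1 (0.337 to 1.16) and 0.630 times its mitotic HSF2 tags (0.322 to 1.2). HSPA4 had 0.5 times the mitotic HSF1 tags of HSPH1 (0.250 to 0.959) and 0.704 times its mitotic HSF2 tags (0.370 to 1.31). For mitotic HSF1, HSPA4L had 1.27 times the tags of HSPA4 (0.610 to 2.68). As a share of the tags at the 3 main regions, HSPA4L took 29.7% of 64 HSF1 tags in mitotic cells and 16.3% of 227 in cycling cells. For HSF2 it took 27.0% of 63 tags in mitotic cells and 12.7% of 173 in cycling cells. Both factors thus show a larger HSPA4L share in mitotic cells, a difference that was not tested. For mitotic HSF2 the smallest listed peak has 16 tags and HSPA4L had 17, so the caller's limit leaves little room for a lower share.

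Summits stayed close together at HSPH1 and spread more at the weaker peaks. The 4 heat-treated summits of HSPH1 lay within 38 bp, those of HSPA4 within 89 bp and those of HSPA4L within 189 bp. In cycling cells the HSF2 and HSF1 summits were 6, 9 and 39 bp apart at HSPH1, HSPA4 and HSPA4L, beside a median of 27 bp over 982 overlapping pairs with an HSF1 fold of at least 5. Mitotic and cycling HSF1 summits were 7, 19 and 36 bp apart, beside a median of 42 bp over 305 such pairs. The mitotic HSF2 summit stood farthest out at each gene, by 31 bp at HSPH1, 89 bp at HSPA4 and 189 bp at HSPA4L from the cycling HSF1 summit. Mitotic and cycling HSF2 summits were 37, 80 and 150 bp apart in that order. Their median was 150 bp over all 645 pairs and 58 bp over 196 with a cycling fold of at least 5. Mitotic HSF2 and HSF1 summits were 38, 70 and 153 bp apart. Here the median was 507 bp over all 1444 pairs and 44 bp over 30 with an HSF1 fold of at least 5.

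**Figure D4:**
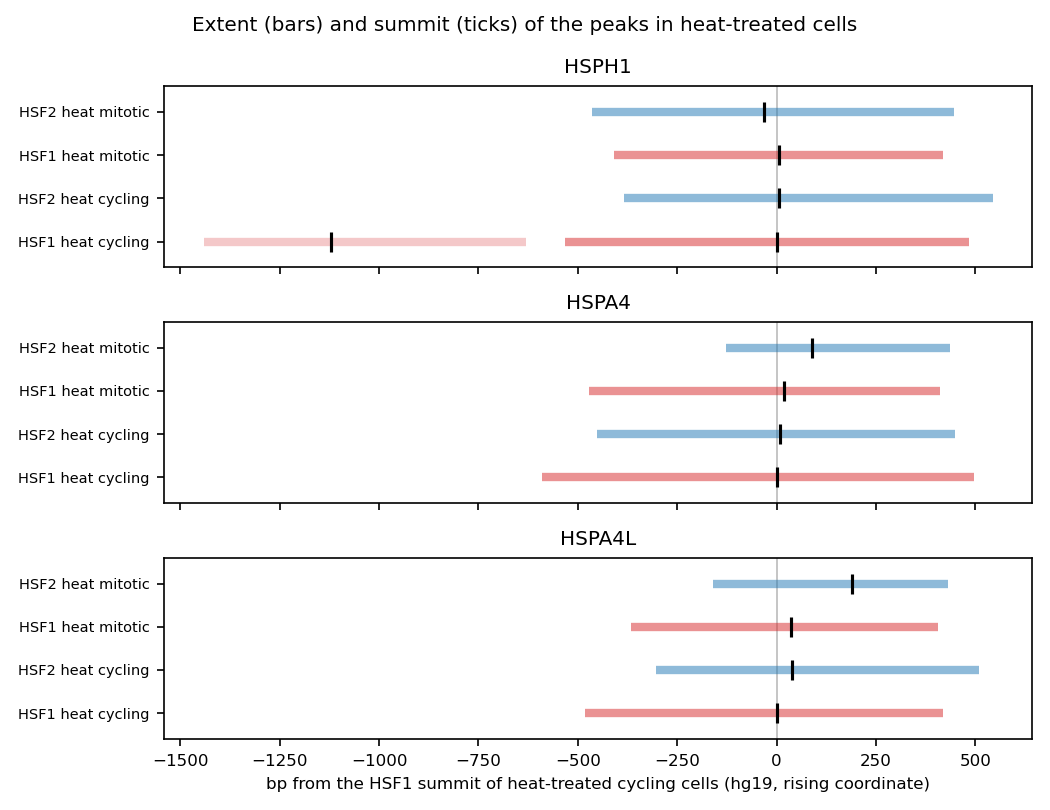
Extent (bars) and summit (black ticks) of each main peak in heat-treated cells, in bp from the HSF1 summit of heat-treated cycling cells (horizontal axis), for HSPH1, HSPA4 and HSPA4L; blue is HSF2, red is HSF1, and the pale bar is the second HSF1 peak at HSPH1. Mitotic HSF2 ticks are displaced most, by 189 bp at HSPA4L.

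Ranked by fold in heat-treated mitotic HSF2, HSPH1, HSPA4 and HSPA4L were numbers 71, 2289 and 5650 of 8270 peaks. In heat-treated mitotic HSF1, HSPH1 was number 8 of 4982 peaks, and HSPA4 and HSPA4L were tied at number 52. HSPH1 was number 23 of 4315 HSF2 peaks and number 7 of 6447 HSF1 peaks in heat-treated cycling cells. HSPA4 was number 16 and number 30 in the same lists, and HSPA4L number 685 and number 352. By fold HSPA4 and HSPA4L are thus high in the mitotic HSF1 list, but by tags they were numbers 1546 and 1168 there and by score numbers 515 and 206. HSPH1 in mitotic HSF2 was number 2463 by tags and 2090 by score. In mitotic HSF2 a fold of at least 4 was reached by HSPH1 and HSPA4, and by 44.4% of the whole list. In mitotic HSF1 it was reached by all 3 genes, and by 1.34% of the whole list.

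Regions with the same pattern as these genes were few. After merging the peaks of the 8 HSF lists into 39668 regions, 41 regions (0.103%), the 3 genes included, had a peak in all 4 heat-treated HSF lists and in none of the other 8. By CPM in heat-treated mitotic cells HSPH1, HSPA4 and HSPA4L were numbers 14, 32 and 39 of the 41 for HSF2 and numbers 3, 22 and 14 for HSF1. In heat-treated cycling cells they were numbers 13, 12 and 40 for HSF2 and numbers 5, 14 and 35 for HSF1. HSPA4L is thus near the bottom in 3 of the 4 libraries and higher in mitotic HSF1.

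Likeness was measured among these regions as the Euclidean distance of log2 CPM over the 4 heat-treated HSF libraries. Nearest to HSPH1 was chr12:57081593-57082739, at a distance of 0.64 on the log2 scale. After it came chr19:2398311-2399478 (0.69) and chr1:27247308-27248594 (0.79). Nearest to HSPA4 was chr20:51072681-51073798 (0.30), then chr19:18099887-18101102 (0.52) and chr11:89955696-89956857 (0.74). Nearest to HSPA4L was chr7:32982474-32983488 (0.36). The next pair for HSPA4L, chr10:121410480-121411442 (0.82) and chr19:14628662-14629787 (0.96), lie in the windows of BAG3 and DNAJB1, an exchange factor and a J-domain partner of HSP70. The median distance over the 41 regions was 1.69 from HSPH1, 1.14 from HSPA4 and 1.67 from HSPA4L.

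The wider HSP70 system was described with 19 hg19 windows around 9 HSP70 genes, 2 J-domain genes and 8 other exchange factors. These windows were set by hand from known gene positions, with no hg19 annotation at hand. Each is on the chromosome that RefSeq gives, and 17 of the 19 are at least as long as the GRCh38 gene. All 4 heat-treated HSF lists had a peak in 6 of the 19 windows, against 3 of 3 for the HSP110 genes. By role these were 3 of 9 HSP70 windows, 2 of 2 J-domain windows and 1 of 8 exchange factor windows, the last being BAG3. Of the 19, 7 had a heat-treated mitotic HSF2 peak, 6 a heat-treated mitotic HSF1 peak, and 9 a heat-treated cycling peak of each factor. Heat-treated mitotic IgG also had a peak in 7 of the 19 and heat-treated cycling IgG in 3. In the 8 exchange factor windows it was 2 for mitotic HSF2 and 1 for mitotic HSF1, against 5 for mitotic IgG.

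In non-treated mitotic cells HSF2 had a peak in 2 of the 3 HSP110 windows and in 8 of the 19 HSP70 system windows, and HSF1 in 0 of 3 and 3 of 19. In non-treated cycling cells HSF2 and HSF1 each had one in 0 of 3 and 4 of 19. The windows differ in length and 3 are too few to set apart, so these counts were not tested.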

How the data were processed

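Per the submitters' processing notes, alignment used Bowtie and hg19, and peaks came from MACS 1.4. Per the file headers, calls were made by MACS 1.4.1 at p 1e-05 or less and a fragment size of 200 bp, keeping at most 2 tags per position (1 in 3 mitotic libraries). Alignment names in the headers carry bwa in 5 cycling lists only. The tags column holds counts per peak, as deposited. The score is minus 10 times log10 of the p-value, per the file headers. The fold is the deposited ratio over input and the FDR is a deposited percent. Kept tags ran from 2066373 to 28676943 per library.

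Computed here were overlaps, CPM on kept tags, 95% exact Poisson intervals, ratios with exact conditional binomial intervals, ranks, summit distances, motif matches and 1 exact permutation test of heat. The genes, lists and comparisons were chosen with earlier results of these data known. The named sites are all peaks in the 3 windows and the 3 nearest regions of like pattern per gene. Overlaps and intervals were tested on simulated data and against bedtools 2.31.1 (0 of 132 list pairs differed). Tools were pandas 2.3.3, numpy 2.4.6 and scipy 1.17.1 under Python 3.11.15, with matplotlib 3.10.9 for plots. Alternatives changed the fold, score and FDR minimum, window, IgG step, denominator, peak width, rank and overlap rule. Input libraries have no peak list and were not analysed here. Promoters are RefSeq, GRCh38.p14.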

Additional observations from a re-analysis of the deposited data

How the results depend on the processing

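All 36 recomputed ratios between libraries stayed inside the counting interval of the reported ratio, with total tags, per kb of peak, or a depth-scaled fold in place of CPM. For HSPA4L, mitotic over cycling HSF1 was 0.827 by total tags, on the other side of 1. Per kb of peak, HSPA4 and HSPA4L in heat-treated mitotic HSF2 came to 1.19 and 1.01, above their intervals, while 22 of 24 recomputed levels stayed within. Peaks in the windows depended on the minimum. At a fold of at least 10, 4 heat-treated HSF peaks, 0 non-treated HSF peaks and 0 IgG peaks were left. At a fold of at least 5 these counts were 9, 0 and 0, and at a score of at least 100 they were 10, 1 and 1. With both peaks at a fold of at least 5, a mitotic HSF1 peak was left at 1 of 3 genes and a mitotic HSF2 peak at 1. The median fold was 3.87 in the heat-treated mitotic HSF2 list and 1.36 in the heat-treated mitotic HSF1 list. The same fold minimum thus does not cut these lists alike. The HSP70 system windows with a fold of at least 10 were 5 for heat-treated cycling HSF2, 3 and 2 for heat-treated mitotic HSF2 and HSF1, 1 and 0 for non-treated cycling HSF2 and HSF1, and 0 and 0 for the non-treated mitotic pair. Ranks of HSPH1, HSPA4 and HSPA4L fell back by tags, to 679, 1546 and 1168 in heat-treated mitotic HSF1, to 340, 335 and 1908 in cycling HSF2 and to 225, 367 and 1185 in cycling HSF1. In mitotic HSF2 those of HSPH1 and HSPA4 were 2463 and 5264. By score, HSPH1 was 2090 in mitotic HSF2, the 3 genes were 69, 515 and 206 in mitotic HSF1 and 46, 44 and 1234 in cycling HSF2, and HSPH1 and HSPA4 were 26 and 64 in cycling HSF1. The cause was not tested. The test of heat, added after the data were seen, paired libraries by antibody and cell state. Without the pairing the mean difference was also 2.5 peaks (two-sided exact permutation p = 0.114), and leaving out each pair gave 2 to 3.33. No analysis paired by replicate number was run, since each group has 1 library. Mitotic values rest on 17 to 27 HSF2 tags and 15 to 30 HSF1 tags.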
